A study of Mus musculus with 8 samples.

Results

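The 9 Sox genes of groups C, D and E were followed by symbol through a count table of 28432 genes: *Sox4*, *Sox11* and *Sox12* (SoxC), *Sox5*, *Sox6* and *Sox13* (SoxD), and *Sox8*, *Sox9* and *Sox10* (SoxE). In *Lhx2* CKO retinas *Sox6* rose 2.38-fold and *Sox4* rose by 0.59 on the log2 scale, while *Sox8* fell to 0.348 of its control level. For *Sox9*, of the same group as *Sox8*, the genotypes overlapped. Each sample was the pair of retinas of 1 mouse embryo, with 4 *Lhx2* CKO embryos (*Lhx2* flox/KO) and 4 control embryos (*Lhx2* flox/+). All embryos were heterozygous for *Hes1* CreERT2, a Cre knocked into the *Hes1* locus and activated by tamoxifen, and for the *Rosa* ai14 reporter. All were harvested at E15.5 after their dams received 0.15 to 0.2 mg tamoxifen per g body weight at E11.5. The control embryos therefore also carried Cre and 1 floxed *Lhx2* allele, were exposed to tamoxifen, and had 1 *Hes1* copy replaced by Cre. Where Cre acted, the floxed allele of controls could be deleted too, which left their cells 1 intact *Lhx2* copy and CKO cells none. Deletion started only in cells that had *Hes1* promoter activity at the time of treatment and passes to their descendants. RNA came from the whole retina. The embryos of each genotype came from 3 litters taken on 2 successive days, so some share a litter or a day, and which do is not given.

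Sox proteins bind DNA through an HMG box, a domain that bends the double helix, and they are sorted into groups by its sequence. SoxC proteins are activators found mainly in newborn neurons, and in mice *Sox4* and *Sox11* are together required for retinal ganglion cells (RGCs). SoxD proteins lack an activation domain of their own and act by pairing with each other and with other factors, as in cartilage, where SOX5 and SOX6 assist SOX9. SoxE proteins carry activation domains; SOX8 and SOX9 are present in retinal progenitor cells (RPCs) and later in Müller glia, and SOX10 belongs to neural crest, pigment cells of crest origin and Schwann cells.

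Total counts were 13955259 to 19099937 reads in CKO and 13143587 to 15063867 reads in control samples. *Lhx2* had 2557, 2765, 2853 and 2868 normalized counts in CKO replicates 1 to 4, against 3478, 3081.5, 3630.5 and 3138 in control replicates 1 to 4. Since this sum takes in exons outside the floxed part, it tests neither the deletion nor the labels. CKO replicate 1 stood apart on the second principal component of all genes tested (17.6% of the variance, score 28.5, against -14.5 to -8.71 in the other CKO samples), and so did control replicate 3 (score -22.5, with 6.47 to 11.8 for the remaining controls). CKO replicate 1 was also the single female embryo of its genotype by *Xist* reads, while control replicates 1 and 4 were female. Markers of RPCs (11), RGCs (14) and photoreceptor precursors (6) all passed the filter on low counts. Normalized counts are reads divided by the size factor of the sample, log2FC is CKO over control, and a gene was called at an edgeR quasi-likelihood adjusted p below 0.001.

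Promoter sequence was read for the members whose levels carry the comparison, to set the start-site regions of the 3 SoxC genes, which have no introns, beside those of *Sox6* and *Sox8*, the members with the largest rise and the largest fall. The 250 bases before the RefSeq start (GRCm38.p6, minus strand in each case) lie at chr13:28953700-28953949 for *Sox4*, chr12:27342719-27342968 for *Sox11*, chr2:152398047-152398296 for *Sox12*, chr7:116038745-116038994 for the most upstream start of *Sox6*, and chr17:25570687-25570936 for *Sox8*. Capitals mark TAATNA, a core that homeodomain proteins such as LHX2 can bind, and ACAAAG, a core that Sox proteins can bind, each on either strand.
Sox4: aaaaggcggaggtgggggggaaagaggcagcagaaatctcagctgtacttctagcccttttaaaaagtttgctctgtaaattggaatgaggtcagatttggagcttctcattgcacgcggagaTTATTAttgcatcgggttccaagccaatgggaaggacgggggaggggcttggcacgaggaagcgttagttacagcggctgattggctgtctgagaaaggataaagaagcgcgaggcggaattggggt
Sox11: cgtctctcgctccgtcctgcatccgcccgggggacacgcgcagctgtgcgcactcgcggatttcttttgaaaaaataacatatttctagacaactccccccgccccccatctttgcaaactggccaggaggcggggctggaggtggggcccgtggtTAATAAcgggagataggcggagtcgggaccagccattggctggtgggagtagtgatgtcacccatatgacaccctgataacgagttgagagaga
Sox12: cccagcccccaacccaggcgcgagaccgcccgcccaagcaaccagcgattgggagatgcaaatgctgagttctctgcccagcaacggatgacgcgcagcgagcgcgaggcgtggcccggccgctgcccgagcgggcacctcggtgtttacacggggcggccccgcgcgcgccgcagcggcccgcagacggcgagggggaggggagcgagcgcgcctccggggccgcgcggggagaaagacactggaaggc
Sox6: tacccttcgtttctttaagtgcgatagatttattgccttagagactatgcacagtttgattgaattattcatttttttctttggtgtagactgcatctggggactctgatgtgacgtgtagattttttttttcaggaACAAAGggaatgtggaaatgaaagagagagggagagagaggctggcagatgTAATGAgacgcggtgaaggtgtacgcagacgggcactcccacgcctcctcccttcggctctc
Sox8: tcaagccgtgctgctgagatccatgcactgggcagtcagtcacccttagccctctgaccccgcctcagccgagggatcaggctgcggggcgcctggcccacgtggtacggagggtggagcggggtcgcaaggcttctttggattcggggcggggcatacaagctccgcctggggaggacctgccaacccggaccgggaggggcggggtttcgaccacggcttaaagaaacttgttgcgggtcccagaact
TAATNA occurred once each in the *Sox4*, *Sox11* and *Sox6* windows shown and not in those of *Sox12* and *Sox8*, and 24.3% of all 32851 promoter windows of this length held it. ACAAAG occurred once in the *Sox6* window and in none of the other windows shown, against 16.5% of all windows. The marked sites do not overlap each other. The stricter TAATTA was in none of the 12 windows of the 7 members matched (4.84% of all windows). These are matches of letters only.

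Of the 9 members, 8 passed the filter on low counts and were tested, and 3 of the 8 were called, against 8.61% of all 13891 genes tested. Of these 3, 2 were higher in the CKO (3.64% of all genes) and 1 was lower (4.97%). The 4 CKO and 4 control values did not overlap for 6 of the 8 (*Sox4*, *Sox11*, *Sox5*, *Sox6*, *Sox13* and *Sox8*), against 33.8% of all genes tested. The median log2FC of the 8 members was 0.28, and that of all genes tested was 0.01. Where nothing was called, the interval of the difference is given below, since a p above the cutoff does not show equal levels.

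**Figure D1:**
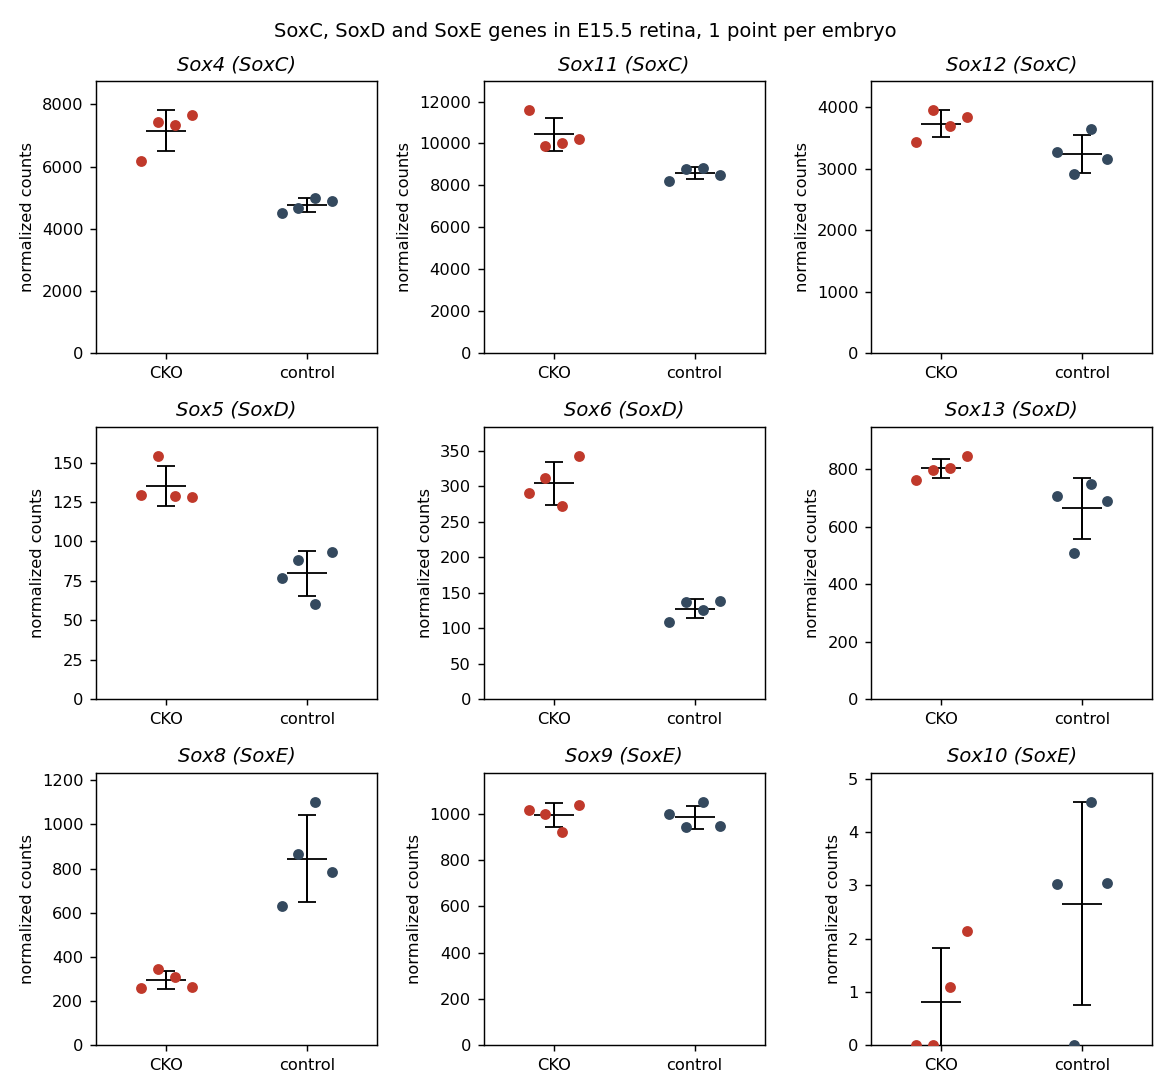
Normalized counts of the 9 genes, 1 point per embryo with replicates 1 to 4 from left to right in each genotype, bars at the mean with the SD (n = 4). *Sox4* and *Sox6* lie wholly higher in the CKO and *Sox8* wholly lower (260 to 345.5 against 630 to 1103), while *Sox9* overlaps throughout.

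Among SoxC genes, *Sox4* rose in the CKO. *Sox4* (ENSMUSG00000076431, chromosome 13, 28948919 to 28953713 of GRCm38, 1 exon) had 6182, 7421, 7343 and 7668 normalized counts in CKO replicates 1 to 4, against 4498, 4665, 4988 and 4902 in control replicates 1 to 4. Every CKO retina was above every control retina, and CKO replicate 1 was the lowest of the CKO samples. The means were 7153.5 ± 662 in the CKO and 4763 ± 223.5 in controls (SD, n = 4 each; log2FC 0.59, SE 0.0664, 95% interval 0.44 to 0.73, edgeR adjusted p = 6.71e-05). Over 2616 bases its exon overlaps *Gm26735*, an opposite-strand lincRNA gene not analysed here. The libraries do not mark strand, so reads of the pair cannot be separated.

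*Sox11* (ENSMUSG00000063632, chromosome 12, 27334264 to 27342574, 1 exon) held the most reads of the 9 genes. It had 11586.5, 9898, 10015 and 10232 normalized counts in CKO replicates 1 to 4, against 8209, 8785, 8831 and 8501 in control replicates 1 to 4. The groups did not overlap, but the difference was smaller than for *Sox4* and did not pass the cutoff (log2FC 0.28, SE 0.0662, 95% interval 0.14 to 0.43, edgeR adjusted p = 0.00662). Here CKO replicate 1 was the highest sample, and without it the log2FC was 0.22 (edgeR adjusted p = 0.00688). With DESeq2 *Sox11* did pass (adjusted p = 5.46e-05), and over the 17 alternatives its adjusted p lay between 5.46e-05 and 0.0247.

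*Sox12* (ENSMUSG00000051817, chromosome 2, 152393611 to 152398063, 1 exon), the weakest activator of the group, had 3441, 3951, 3702 and 3839.5 normalized counts in CKO replicates 1 to 4 and 3278, 2909, 3642 and 3154 in control replicates 1 to 4. The groups overlapped, with control replicate 3 above CKO replicate 1. Its log2FC was 0.20 (95% interval 0.06 to 0.35, edgeR adjusted p = 0.0324).

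Per kilobase of exon, the SoxC genes were far above the other members. The sum of the 3 genes was 3456 to 3693 normalized counts per kb in the CKO and 2662 to 2921 in controls, against 205 to 228 in the CKO and 133 to 186 in controls for SoxD. On this scale *Sox4* stood first in the CKO (1492 ± 138 per kb) and *Sox11* second (1255 ± 94.0), whereas in controls *Sox11* stood first (1033 ± 34.7) and *Sox4* second (993 ± 46.6). The samples of *Sox4* and *Sox11* overlapped within each genotype, so their order is not set beyond the spread. *Sox12* came next in both genotypes, with 838 ± 49.4 per kb in the CKO and 729 ± 68.6 in controls.

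The ratio of *Sox4* to *Sox11* per kb was 0.925, 1.30, 1.27 and 1.30 in CKO replicates 1 to 4, against 0.9496, 0.921, 0.979 and 0.9995 in control replicates 1 to 4. CKO replicate 1 thus lay within the control range while the other 3 lay above it (exact permutation test, two-sided p = 0.114, adjusted p = 0.133 over 7 ratios between paralogues). With 4 against 4 samples this test gives no p below 0.0286, so no ratio could reach the cutoff of 0.001. CKO replicate 1 was the sample set apart by the second principal component and by sex, and the part of either in its ratio was not tested. The ratio of *Sox4* to *Sox12* was 1.67 to 1.86 in the CKO and 1.27 to 1.49 in controls, with no overlap (exact permutation test, two-sided p = 0.0286, the smallest that 4 against 4 samples allow, adjusted p = 0.0667).

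Genes reported to depend on SoxC factors were mostly higher in the CKO. Of 8 tested, 5 rose, none fell and 3 did not pass, with a median log2FC of 0.48 against 0.01 for all genes. *Plxna1*, which encodes a guidance receptor of RGC axons, had 4726 to 4856 normalized counts in the CKO and 2961 to 3175 in controls (log2FC 0.65, SE 0.0447, edgeR adjusted p = 2.08e-06). *Isl1* and *Pou4f2*, transcription factor genes of RGCs, rose with log2FC values of 0.50 and 0.46 (edgeR adjusted p = 4.83e-05 and 1.14e-04). *Tead2*, another gene of the list, had a log2FC of -0.21 (95% interval -0.33 to -0.09, edgeR adjusted p = 0.0128). RGC markers moved with these genes: 9 of 14 rose, none fell, and their summed level was 114982.5 to 123749 normalized counts in the CKO and 80807 to 93063 in controls. In bulk retina a larger share of RGCs and more RNA per RGC cannot be told apart, and the part of either in the SoxC values was not tested. *Pou4f2*, *Pou4f1* and *Isl1* belong to both lists.

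**Figure D2:**
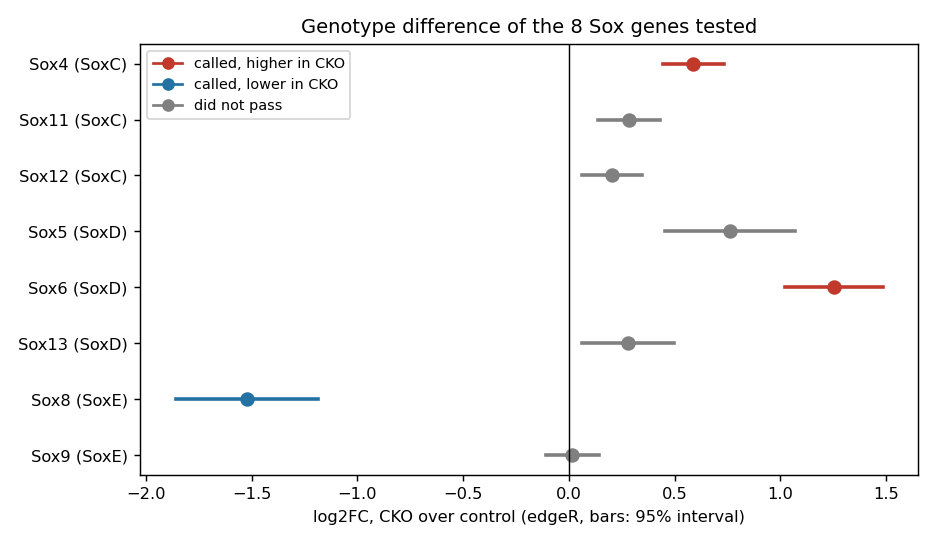
Log2FC of the 8 Sox genes tested, CKO over control, with 95% intervals from edgeR over 4 samples per genotype. *Sox6* and *Sox4* (red) rose, *Sox8* (blue) fell, and the interval of *Sox9* (-0.11 to 0.14) is centred near 0.

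Among SoxD genes, *Sox6* had the largest rise of all members. *Sox6* (ENSMUSG00000051910, chromosome 7, 115470872 to 116038796, 17 exons in its principal transcript) had 290.0, 311, 272 and 342.5 normalized counts in CKO replicates 1 to 4, against 109, 137.5, 126 and 139 in control replicates 1 to 4. The lowest CKO sample (272) was well above the highest control (139). The means were 304 ± 30.2 in the CKO and 128 ± 13.9 in controls (SD, n = 4 each; log2FC 1.25, SE 0.106, 95% interval 1.02 to 1.49, edgeR adjusted p = 1.01e-05). Of all genes tested, 2.09% were called with a change of over 2-fold. *Sox6os*, an antisense gene named after it, had 1 to 4 reads per CKO sample and 0 to 4 per control sample.

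*Sox5* (ENSMUSG00000041540, chromosome 6, 143828425 to 144781977, 15 exons) had 129.5, 154, 129 and 128 normalized counts in CKO replicates 1 to 4, against 76.5, 88.5, 60.5 and 93.2 in control replicates 1 to 4. Every CKO sample was above every control, but the difference did not pass the cutoff (log2FC 0.76, SE 0.141, 95% interval 0.45 to 1.07, edgeR adjusted p = 0.00177). The values rest on 118 to 179 reads per CKO sample and 53 to 92 per control sample. *Sox5* passed with DESeq2 (adjusted p = 5.61e-05) and with no filter on low counts (edgeR adjusted p = 1.82e-04), and its adjusted p ran up to 0.00704 over the 17 alternatives. *Sox5os1*, an opposite-strand gene not analysed here, overlaps 1330 bases of its exons.

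*Sox13* (ENSMUSG00000070643, chromosome 1, 133382303 to 133424377, 14 exons) had 762, 796, 805 and 845 normalized counts in CKO replicates 1 to 4, against 708, 507, 749 and 688 in control replicates 1 to 4. The groups were apart by a small margin, and control replicate 2 was the lowest sample (log2FC 0.28, 95% interval 0.06 to 0.50, edgeR adjusted p = 0.0511). Without control replicate 2 the log2FC was 0.18.

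*Sox13* made up most of the SoxD level per kb, with 85.4 to 87.2% of the sum in the CKO and 88.4 to 93.2% in controls. *Sox6* was 8.58 to 10.1% of the sum in the CKO and 4.15 to 6.97% in controls. The ratio of *Sox6* to *Sox13* was 0.111, 0.114, 0.0984 and 0.118 in CKO replicates 1 to 4, against 0.0447, 0.0788, 0.0488 and 0.0587 in control replicates 1 to 4 (exact permutation test, two-sided p = 0.0286, adjusted p = 0.0667). That of *Sox5* to *Sox6* was 0.386 to 0.512 in the CKO and 0.497 to 0.726 in controls, with overlap (exact permutation test, two-sided p = 0.0571, adjusted p = 0.10 over the 7 ratios). Per kb *Sox6* and *Sox5* were the lowest of the 8 members tested. *Sox6* had 20.5 ± 2.03 in the CKO and 8.61 ± 0.938 in controls, and *Sox5* had 9.41 ± 0.882 in the CKO and 5.54 ± 1.01 in controls (SD, n = 4 each).

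Among SoxE genes, *Sox8* fell, *Sox9* showed no detectable difference and *Sox10* was close to absent. *Sox8* (ENSMUSG00000024176, chromosome 17, 25565892 to 25570686, 3 exons) had 259.8, 345.5, 306 and 261 normalized counts in CKO replicates 1 to 4, against 630, 866, 1103 and 783 in control replicates 1 to 4. The groups were far apart, and the control samples varied more among themselves, with control replicate 3 the highest and control replicate 1 the lowest. The means were 293 ± 40.9 in the CKO and 846 ± 197 in controls (SD, n = 4 each; log2FC -1.52, SE 0.153, 95% interval -1.86 to -1.19, edgeR adjusted p = 3.08e-05). Without control replicate 3 the log2FC was -1.37 (edgeR adjusted p = 2.61e-05). An antisense gene, *2810468N07Rik*, overlaps 329 bases of *Sox8* exons and also fell (28 to 54 reads per CKO sample, against 83 to 127 per control sample; log2FC -1.62, edgeR adjusted p = 3.32e-04). Reads of the pair cannot be told apart where they overlap.

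*Sox9* (ENSMUSG00000000567, chromosome 11, 112782224 to 112787760, 3 exons) had 1018, 998.5, 921 and 1040 normalized counts in CKO replicates 1 to 4, against 998, 946, 1053 and 946 in control replicates 1 to 4. The genotypes overlapped throughout. The means were 995 ± 51.9 in the CKO and 985.5 ± 51.1 in controls (SD, n = 4 each; log2FC 0.02, 95% interval -0.11 to 0.14, edgeR adjusted p = 0.850), and the sign turned with library totals as the scaling (log2FC -0.01) and without control replicate 4 or CKO replicate 1 or 4 (log2FC -0.0009, -0.0014 and -0.0038). The ends of the interval correspond to changes far smaller than that of *Sox8*.

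Within each sample, the ratio of *Sox8* to *Sox9* per kb was 0.338, 0.459, 0.441 and 0.333 in CKO replicates 1 to 4, against 0.838, 1.22, 1.39 and 1.098 in control replicates 1 to 4. The groups did not overlap, and the mean log2 ratio was lower by 1.52 in the CKO (difference -1.52, exact permutation test, two-sided p = 0.0286, adjusted p = 0.0667 over 7 ratios). This ratio does not depend on how libraries are scaled. The SoxE sum per kb was 321 to 352 in the CKO and 444.5 to 609.8 in controls, of which *Sox8* was 24.9 to 31.5% in the CKO and 45.5 to 58.0% in controls. In the order of levels per kb the SoxC genes were followed in the CKO by *Sox9* (240.5 ± 12.6), *Sox13* (186 ± 7.95) and *Sox8* (94.1 ± 13.1), with no overlap between them. In controls they were followed by *Sox8* (271 ± 63.3) and *Sox9* (238 ± 12.4), which overlapped, and then by *Sox13* (154 ± 24.8).

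*Sox10* (ENSMUSG00000033006, chromosome 15, 79154908 to 79165240, 5 exons) had 0, 0, 1 and 2 reads in CKO replicates 1 to 4, against 3, 0, 4 and 3 in control replicates 1 to 4, too few for the filter. The summed 3 and 10 reads give a ratio of 0.264 with an exact binomial 95% interval of 0.0466 to 1.02, for counting error only, so no difference was detectable at this depth. Markers of crest and Schwann cells were also low, and 1 of the 8 passed the filter.

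**Figure D3:**
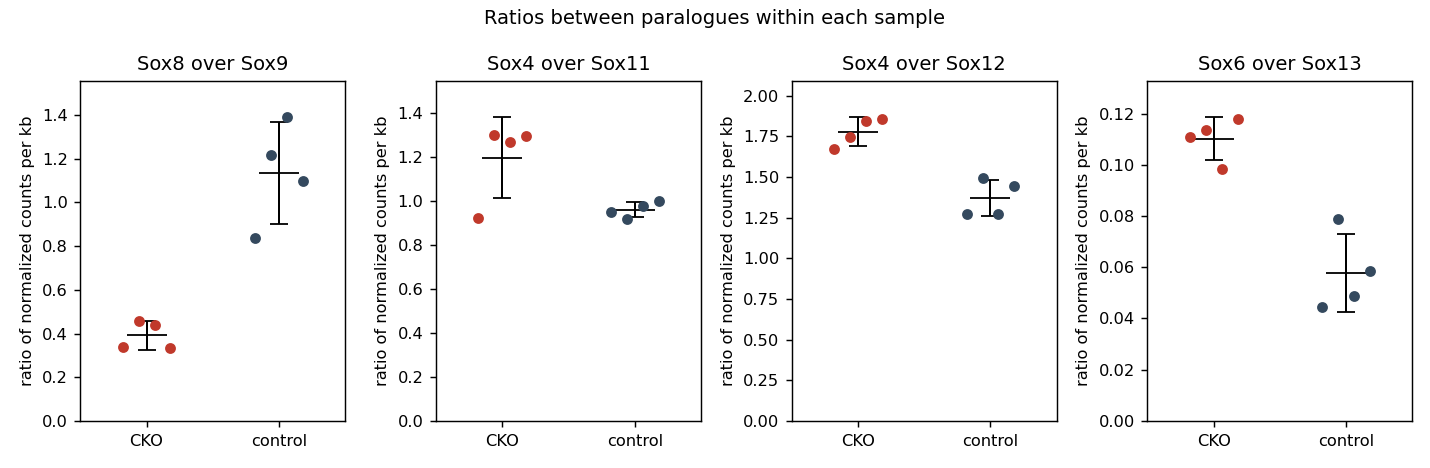
Ratios of normalized counts per kb between paralogues within each sample, 1 point per embryo with replicates 1 to 4 from left to right, bars at the mean with the SD (n = 4). *Sox8* over *Sox9* is lower in all CKO samples (0.333 to 0.459 against 0.838 to 1.39), and for *Sox4* over *Sox11* CKO replicate 1 (0.925) lies with the controls.

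The patterns most like that of *Sox8*, the called member with the largest absolute log2FC, were those of *Lad1*, *Cyp26a1* and *Itgb5*. Likeness was the root mean square difference of centred log2 normalized counts over the 8 samples, which was 0.123, 0.166 and 0.200 for these genes. *Cyp26a1*, which encodes an enzyme that breaks down retinoic acid, had 185.5 ± 12.7 normalized counts in the CKO and 597.5 ± 90.6 in controls (SD, n = 4 each). *Itgb5*, an integrin subunit gene, had 474 ± 93.2 in the CKO and 1178 ± 113 in controls, and *Lad1* was low, with 10.6 ± 1.70 in the CKO and 29.9 ± 8.71 in controls, and was not called (edgeR adjusted p = 0.00165). Since *Lad1* passed the filter on low counts only through control samples, a fall was the one difference it could show.

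Matrix genes that SOX9, with SOX5 and SOX6, activates in cartilage included a pair that fell. Of 7 tested, 2 fell, none rose and 5 were not called, with a median log2FC of -0.43 against 0.01 for all genes. Of those not called, *Col11a2* lay wholly higher in the CKO (172 to 419 normalized counts, against 103 to 153 in controls). Its log2FC was 1.00 (edgeR adjusted p = 0.0124). *Col9a2* and *Col9a3* lay wholly lower in the CKO (log2FC -0.43 and -0.60, edgeR adjusted p = 0.00456 and 0.00679). *Col9a1*, a chain of type IX collagen, had 196, 254, 275 and 248.6 normalized counts in CKO replicates 1 to 4, against 3013, 2929, 2568 and 2433 in control replicates 1 to 4. *Col2a1*, the chain of type II collagen, had 807 to 1041 in the CKO and 1344 to 1718 in controls (log2FC -0.71, edgeR adjusted p = 2.17e-04), and its call was lost without CKO replicate 3 or 4 or control replicate 1 or 2 (log2FC -0.71 to -0.63, edgeR adjusted p = 0.00106 to 0.00131). *Hapln1*, which encodes a link protein of hyaluronan matrix, had 17.5, 37.9, 41.6 and 50.1 normalized counts in CKO replicates 1 to 4, against 12.1, 3.12, 4.57 and 6.08 in control replicates 1 to 4 (log2FC 2.45, 95% interval 1.52 to 3.38, edgeR adjusted p = 0.00117). It passed the filter on low counts only through CKO replicates 2, 3 and 4, so a rise was the one difference it could show. Without any 1 of these 3 samples it was not tested, and without CKO replicate 1 it was called (log2FC 2.69, edgeR adjusted p = 1.81e-04). *Acan* and *Matn1*, genes that define cartilage itself, had 1 and 1 read over the CKO samples and 2 and 1 over the controls. DESeq2 and edgeR with no filter each called 4 falls and 2 rises in this list.

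Genes of Müller glia, which form late in retinal development and keep *Sox8* and *Sox9*, and of progenitors that share these genes were split. Of 10 tested, 3 rose, 2 fell and 5 did not pass, with a median log2FC of 0.24. *Nfix*, a nuclear factor I gene, had 144 to 174 normalized counts in the CKO and 37.3 to 61.4 in controls (log2FC 1.72, SE 0.155, edgeR adjusted p = 1.48e-05). *Rlbp1*, which encodes a retinaldehyde binding protein, had 393 to 508 in the CKO and 118 to 216 in controls (log2FC 1.52, SE 0.151, edgeR adjusted p = 2.90e-05), and *Vim*, vimentin, had a log2FC of 0.72. *Car2*, which encodes a carbonic anhydrase, fell (log2FC -0.80, edgeR adjusted p = 3.39e-04). Its call, though not its direction, was lost without CKO replicate 2, 3 or 4 or control replicate 4 (log2FC -0.84 to -0.78, edgeR adjusted p = 0.00105 to 0.00167). The count of falls in this list was 0 without any 1 of those samples and 1 without control replicate 1 or 2. Markers of RPCs, the cells in which *Sox8* and *Sox9* are found at this age, fell more widely: 8 of 11 fell and none rose. The 3 not called were *Pax6*, *Six3* and *Notch1* (log2FC 0.13, 0.01 and -0.30). The summed level of the 11 was 45915 to 53795 normalized counts in the CKO and 95569 to 104027 in controls. *Ccnd1* held the largest part of it (20135 ± 2380 in the CKO and 45274 ± 3303.5 in controls). In bulk retina, fewer RPCs and less RNA per RPC cannot be told apart. The part of either in the values of *Sox8* and *Sox9* was not tested. Pigment cell markers had sums of 129 to 183 in the CKO and 272 to 480 in controls, with 1 of 5 tested called lower (3 without control replicate 3), and their part was likewise not tested. Of those tested, *Dct*, *Tyrp1* and *Tyr* passed the filter on low counts only through control samples, so they could show only a fall.

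**Figure D4:**
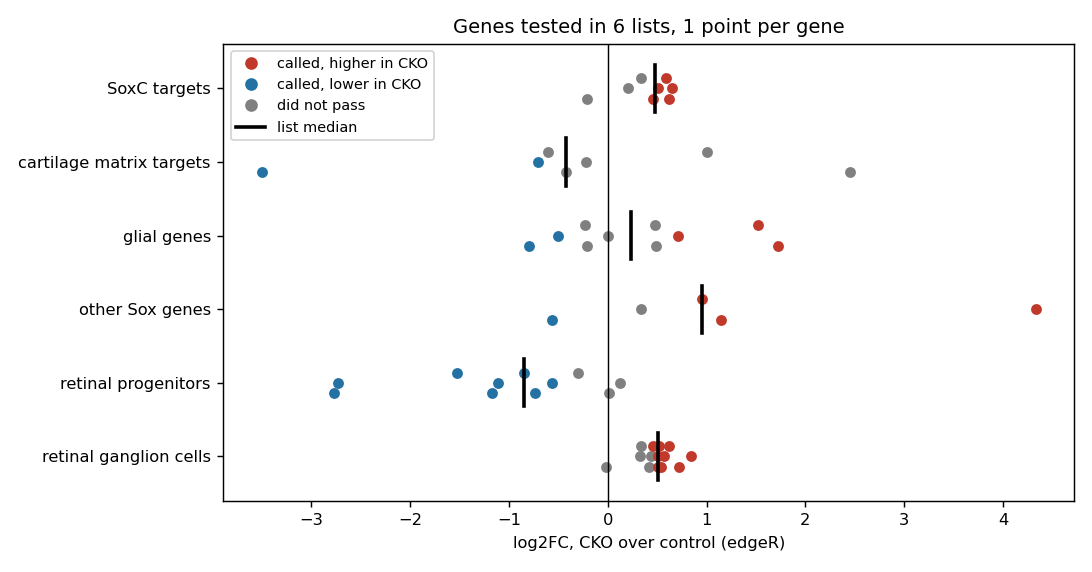
Log2FC of the genes tested in 6 lists, 1 point per gene (red, called higher in the CKO; blue, called lower; gray, not called), and a black bar for the median of each list. The medians run from -0.84 for RPC markers to 0.95 for the other Sox genes. *Sox21* and *Hapln1* passed the filter on low counts only through CKO samples.

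Beyond groups C, D and E, 5 of 10 other Sox genes were tested, and 3 of them rose, 1 fell and 1 did not pass. *Sox21*, 1 of the 3 that rose, had 190 to 246.5 normalized counts in the CKO and 6.25 to 14.8 in controls (log2FC 4.33, edgeR adjusted p = 1.32e-07). It passed the filter on low counts only through CKO samples, so a rise was the one difference it could show. *Sox3*, a SoxB gene, had 479 ± 45.2 normalized counts in the CKO and 248 ± 24.0 in controls (SD, n = 4 each; log2FC 0.95, edgeR adjusted p = 2.24e-05), a change between those of *Sox5* and *Sox6*. *Sox1* also rose (log2FC 1.14, edgeR adjusted p = 4.88e-04), though its adjusted p ran up to 0.00235 over the 17 alternatives. The gene that fell was *Sox2* (log2FC -0.56, edgeR adjusted p = 3.56e-05). *Sox7*, *Sox17* and *Sox18*, SoxF genes of endothelium, had 47, 18 and 38 reads over the CKO samples and 54, 14 and 21 over the controls.

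Markers of other cells that a dissected eye could hold were followed as well, and their part in the Sox values was not tested. Of 8 amacrine and horizontal cell genes, 1 rose and 1 fell, with sums of 8229 to 8740.0 normalized counts in the CKO and 8560.3 to 9344 in controls, and of 6 photoreceptor precursor genes none was called. The rise among amacrine and horizontal cell genes was not called without CKO replicate 3 or 4 or control replicate 1, 2 or 4, and 2 fell without CKO replicate 1. Endothelial genes had sums of 2639 to 3466 in the CKO and 4340.5 to 4621 in controls, with 2 of 6 called lower (1 without control replicate 4). Most of each sum was *Kdr*, which RPCs also express (2931 ± 305 in the CKO and 4104 ± 142 in controls). The other gene called lower was *Cldn5* (log2FC -1.55), while *Pecam1* and *Cdh5* had log2FC values of 0.05 and 0.09. The list median was 0.01. Mesenchyme around the eye, where *Sox9* is also expressed, had 2 of 11 markers tested and 1 called lower, with sums of 50.8 to 146 in the CKO and 111 to 191 in controls. That call was lost without CKO replicate 2 or 3 or control replicate 1 or 2. Lens markers, 1 of 7 tested and none called, had sums of 42.2 to 89.6 in the CKO and 43.5 to 62.4 in controls, and those of crest and Schwann cells 106 to 164 in the CKO and 89.0 to 125 in controls.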

How the data were processed

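RNA was measured in retinas of 8 embryos, 4 *Lhx2* CKO and 4 control. The authors prepared poly(A) libraries without strand information, sequenced 50 cycles from 1 end, mapped them on mm10 (TopHat 2) and took gene counts by HTSeq; Cufflinks is also named in the submitters' processing notes. The deposited values are these raw counts, neither normalized nor pooled. For the annotation release, the strand setting and other tool versions: not given in the sources used here. Embryos shared litters and harvest days, but which did is not known here. The tests treat embryos as independent, and effects of litter or day could not be modelled.

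Analyses used R 4.3.3. Following the study, a gene entered testing when 3 or more samples reached 20 normalized counts (median-of-ratios size factors). Testing was by the quasi-likelihood test of edgeR 4.0.16 (TMM scaling, genotype only) and Benjamini-Hochberg adjustment over all genes tested. SEs were derived by dividing the absolute log2FC by the root of the F statistic. Coordinates and exon lengths are from GENCODE M21 (GRCm38, the assembly also called mm10; 28232 of 28432 gene IDs matched), and promoters from RefSeq (GRCm38.p6), where 7 of 9 members matched. Levels between genes are per kb of merged exons. Ratios between paralogues, 7 in all, were compared by exact permutation of log2 ratios. Named genes were all members, up to 4 of each list by p-value and the 3 genes nearest to *Sox8*. *Tead2*, *Col9a3*, *Col11a2*, *Pax6*, *Six3*, *Notch1*, *Ccnd1* and genes given by reads only were added after their values were seen. Members and lists were chosen with earlier results of these data known. Alternatives were DESeq2 1.42.0, limma 3.58.1 voom, other scalings and filters, an adjusted p below 0.05, a replicate block, sex as a covariate and leaving out each sample. The reads of 1 marker gene are not reported here.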

Additional observations from a re-analysis of the deposited data

Results flagged for a closer look

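Over 104 groups of 4 samples, Dixon's test set 8 samples apart from the other 3 of their genotype, and chance alone marks about 1 in 20 groups. *Sox5* was higher in CKO replicate 2 (154.2 normalized counts) than in the other CKO samples (128.1 to 129.5). The ratio of *Sox4* to *Sox11* was lower in CKO replicate 1 (0.9248) than in the other CKO samples (1.271 to 1.300). CKO replicate 1 was also lowest for *Sox2* (1433 normalized counts, against 1650 to 1690), for *Fgf15*, an RPC gene (1613, against 2421 to 2468), and for *Kdr*, a receptor gene of endothelium that RPCs also express (2479, against 3039 to 3145). Of RGC genes, *Elavl4* was lowest in CKO replicate 3 (5711.5, against 6142 to 6223) and *Cntn2* highest in CKO replicate 4 (14336, against 12106 to 12347). *Cldn5*, an endothelial junction gene, was highest in control replicate 3 (202.1, against 153.0 to 158.3).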

How the results depend on the processing

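The calls of *Sox4*, *Sox6* and *Sox8* held in all 17 alternatives, with log2FC values of 0.55 to 0.65, 1.19 to 1.30 and -1.63 to -1.37. Members called higher numbered 4 with DESeq2, which added *Sox11* (log2FC 0.29) and *Sox5* (0.77), and 5 at an adjusted p below 0.05, which added *Sox11* (0.28), *Sox12* (0.20) and *Sox5* (0.76); with no filter *Sox5* (0.76) was added. The log2FC of *Sox9* was -0.0106 with library totals and ran from -0.0038 to 0.0521 with 1 sample left out. Of all genes, edgeR called 1196 (505 higher, 691 lower), DESeq2 2390 (1158 and 1232), edgeR with no filter 2055 (964 and 1091) and edgeR at 0.05 4619 (2207 and 2412). Leaving out each sample in turn gave 686 to 1553 genes (264 to 707 higher and 422 to 846 lower), and the count fell by over 1.5 times without control replicate 1 (711), 2 (760) or 4 (748) or CKO replicate 2 (735) or 4 (686). With the replicate number as a replicate block 676 genes were called (272 higher and 404 lower), and no member changed its call. The numbers share no stated litter or day, the correlation of same-numbered samples ran from -0.154 to 0.142, and 2 of 4 CKO samples correlated best with the control of their own number. Sex as a covariate changed no call of a member. *Sox10* had too few reads to be tested.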

Other observations

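The nearest tested gene on each side of the 8 members was looked up, which gave 16 neighbours, and 2 of the 16 were called, against 8.61% of all genes tested. *Insc*, 620 kb from *Sox6*, rose with a log2FC of 0.76 (edgeR adjusted p = 1.30e-04), and the other was the antisense gene that overlaps *Sox8*. The neighbours of *Sox4*, *2610307P16Rik* and *A330102I10Rik*, lie 63.3 and 60.7 kb away and had log2FC values of 0.41 and 0.41 that did not pass (edgeR adjusted p = 0.0363 and 0.116). *Cacna1h*, the other neighbour of *Sox8*, had a log2FC of 0.40 (edgeR adjusted p = 0.0186). *Map2k6* and *2610035D17Rik*, on either side of *Sox9*, had log2FC values of 0.00060 and -0.07. These genes were chosen by position after the values of the members had been seen.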
